A study of Homo sapiens with 8 samples.

Results

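The regions described here are 499 of the 31961 H3K27ac peaks in one table, or 1.56% of them. They scored over a set level before treatment, as a mean over 4 untreated libraries, and higher after 2 hours of interferon beta in each of 4 clones. They were selected on the scores themselves: the mean of the 4 untreated libraries was over 12, and log2(score + 1) was higher with interferon beta than without it by at least 0.8 in each of the 4 clones. That within-clone difference is called the rise. Because the rise chose the peaks, it is given as a description, and the tests concern the difference between genotypes, averaged over both treatments or taken at one of them. The untreated limit was set on a mean over both genotypes: 413 members passed it in each genotype, 72 through the control clones alone and 14 through the IRF1-guide clones alone. The last 2 sets differed between genotypes in part by that choice, so counts are also given for the 413. In 356 members all 4 untreated scores were over 12, and in 5 an untreated score was 0 or 1 in some clone.

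H3K27ac was measured by chromatin immunoprecipitation and sequencing in clones of the cell line CFPAC1, which derives from a human ductal adenocarcinoma of the pancreas. The IRF1-guide group comprised clones 11 and 13, lines cloned by dilution after lentiviral delivery of Cas9 and a guide RNA directed at IRF1. The control group comprised clones 1 and 4, which had received the same kind of plasmid with no guide named in the labels. Each clone gave 1 library treated for 2 hours with hIFNb (taken to mean human interferon beta) and 1 untreated library, so each of the 4 groups held 2 libraries and each clone was 1 line. All groups thus share the parental line, lentiviral infection and cloning. The labels state the target of the guide and not whether IRF1 protein was lost, and nothing says that the paired libraries of a clone came from more than 1 culture, so every spread below is between clones.

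H3K27ac is an acetyl mark of histone H3 found at active promoters and enhancers. Interferon beta acts through its receptor and the JAK kinases to assemble transcription factor complexes that include STAT2 and IRF9 and bind interferon-stimulated response elements beside antiviral genes. IRF1 is itself an interferon-inducible factor of the same family and recognises closely related GAAA-rich sequence, and it is known for its part in antigen presentation genes and in basal expression of antiviral genes in epithelial cells.

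Promoters lying inside these peaks often held that sequence. Of 145 protein-coding genes whose RefSeq promoter (250 bases before to 50 after the start) began inside a member peak, 53 (36.6%) held the core GAAANNGAA on either strand, against 764 of 8585 (8.90%) for promoters inside any peak and 9.22% of all 15843 promoters in the table. The STAT element TTCNNNGAA, which is its own reverse complement, was in 15.9% of the member promoters against 7.63% of promoters in any peak. For the AP-1 element TGANTCA the shares were 8.28% and 6.65%. Promoters inside any peak include those of members, and inside other peaks 8.42% held the IRF core. The median GC content was 61.0% in member promoters and 64.3% in promoters inside any peak, and the shares were not adjusted for it. A match describes these letters only and shows no binding. The 8 windows below are 100 bases each from promoters inside member peaks, 5′ to 3′ on the gene's strand, from RefSeq on GRCh38.p14, and capitals mark every match to the core or its reverse complement. The first 5 belong to antiviral and antigen presentation genes, PLA1A and CXCL10 to a phospholipase and a chemokine gene, and CYP1A1 is a member with no match. RTP4 and B2M hold overlapping matches that share a GAA, as TAP1 does on the other strand.
RTP4 (chr3:187368285-187368384, plus strand): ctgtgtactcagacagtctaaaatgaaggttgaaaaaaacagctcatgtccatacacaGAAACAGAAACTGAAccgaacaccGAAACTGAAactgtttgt
IFIT5 (chr10:89414468-89414567, plus strand): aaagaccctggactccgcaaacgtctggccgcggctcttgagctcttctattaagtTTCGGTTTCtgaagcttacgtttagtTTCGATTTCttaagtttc
IFI6 (chr1:27672273-27672372, minus strand): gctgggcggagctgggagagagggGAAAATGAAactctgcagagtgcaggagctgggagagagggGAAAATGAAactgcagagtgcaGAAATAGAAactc
TAP1 (chr6:32853785-32853884, minus strand): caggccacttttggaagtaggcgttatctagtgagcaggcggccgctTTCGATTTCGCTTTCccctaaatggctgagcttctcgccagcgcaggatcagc
B2M (chr15:44711337-44711436, plus strand): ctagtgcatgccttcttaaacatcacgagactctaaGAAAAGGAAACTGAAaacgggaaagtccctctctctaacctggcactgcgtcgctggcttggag
PLA1A (chr3:119597705-119597804, plus strand): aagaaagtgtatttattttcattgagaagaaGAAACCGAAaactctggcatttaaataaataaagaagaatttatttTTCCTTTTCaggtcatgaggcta
CXCL10 (chr4:76023638-76023737, minus strand): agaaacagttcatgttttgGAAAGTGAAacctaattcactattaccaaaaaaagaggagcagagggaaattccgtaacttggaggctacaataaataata
CYP1A1 (chr15:74725529-74725628, minus strand): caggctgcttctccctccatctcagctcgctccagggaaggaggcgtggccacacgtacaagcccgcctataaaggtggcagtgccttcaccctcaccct

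Scores in the table are the authors' normalised whole numbers per peak. How they were scaled is not given in the sources used here, and the reads behind a score are unknown. They summed to between 3277561 and 3460390 per library over all peaks. Peaks with a start site inside were present for 5 of 8 epithelial markers, namely KRT8, KRT18, KRT7, EPCAM and ESRP1 and not CDH1, KRT19 or GRHL2, and for 3 of 14 immune, fibroblast and endothelial markers (LYZ, COL1A1 and PECAM1), PTPRC and VWF being among the 11 without one. The highest mean score was 612, at KRT7, among epithelial markers and 237, at PECAM1, among the others, above the 108 at EPCAM. None of these marker peaks was a member. At the IRF1 gene, the guide's target, the peak scored 2265 and 2033 with hIFNb and 1332 and 1187 untreated in IRF1-guide clones, against 3003 and 2159 with hIFNb and 2014 and 1306 untreated in control clones. This mark does not report IRF1 protein, and the peak was not a member because its smallest rise was 0.58.

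Before treatment the member peaks were weaker than the typical peak, and after 2 hours of hIFNb they were stronger. Their median score was 92 and 87 in IRF1-guide clones 11 and 13 with hIFNb, against 26 and 28 in the same clones untreated. In control clones 1 and 4 it was 147 and 134 with hIFNb, against 40 and 39 untreated. Over all peaks the median lay between 44 and 50 in every library. Member peaks took 2.17% and 2.02% of the summed score in IRF1-guide clones with hIFNb and 0.706% and 0.722% untreated. In control clones they took 2.96% and 2.73% with hIFNb, against 0.938% and 0.946% untreated. Both IRF1-guide clones lay below both control clones at each treatment.

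**Figure D1:**
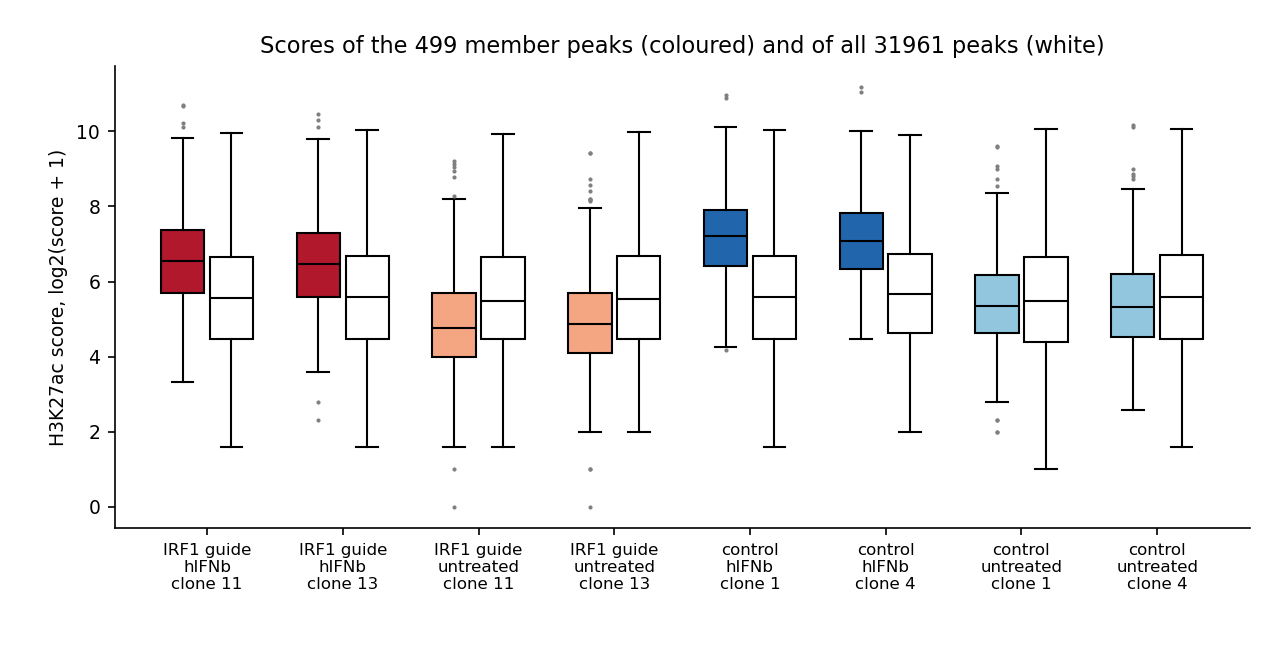
H3K27ac scores as log2(score + 1) of the 499 member peaks (coloured boxes) and of all 31961 peaks (white boxes) in the 8 libraries. Boxes span the quartiles, lines mark medians, whiskers reach 1.5 times the box height, and points beyond are drawn for members alone. Member medians were 92 and 87 in IRF1-guide clones with hIFNb and 147 and 134 in control clones with hIFNb, while all-peak medians stayed between 44 and 50.

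Across members the mean rise had a median of 1.57 and ran between 0.89 and 3.52 on the log2 scale. By clone the median rise was 1.53 and 1.37 in IRF1-guide clones 11 and 13 and 1.64 and 1.55 in control clones 1 and 4. The SD of a member's rise over the 4 clones had a median of 0.35. In 397 members the 4 hIFNb libraries all scored above the 4 untreated ones, which was so for 7.22% of all peaks. In limma 489 members passed an adjusted p of 0.05 for the hIFNb response, against 6.55% of all peaks, and since the rule used this contrast nothing is read from either count.

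The thresholds cut through a continuum. The 3 members closest to the untreated limit had a mean untreated score of 12.25 (2 of them near ARHGAP25 and CTH), and the 3 nearest peaks outside it, 1 of them near CBR1, had exactly 12. At the limit on the rise, members near GUCY1A1, near ISG20 and at PI4K2B had smallest rises of 0.803, 0.803 and 0.804, while the 3 closest peaks outside had between 0.797 and just under the limit. A further 423 peaks had rises of at least 0.8 in every clone from untreated means of 12 or less, and 70 peaks with untreated means over 12 were lower with hIFNb by at least 0.8 in every clone.

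Member peaks were broad and sparse in signal when untreated. Their median width was 6626 bp, against 3550 bp for all peaks and 4094 bp for all peaks with an untreated mean over 12. The 423 peaks with such rises from untreated means of 12 or less had a median width of 1896 bp. Scores were not divided by width, so the untreated limit itself bears on the width of members. The widest member, at IFIT2, spanned 34737 bp. Per kilobase the median score was 17.5 with hIFNb and 5.64 untreated, against 13.9 for all peaks at both treatments. A start site lay inside or within 2 kb of 165 members (33.1%, against 31.2% of all peaks and 33.7% of peaks with an untreated mean over 12). It lay within 50 kb of the centre of 180 more (called distal, 36.1% against 34.4% of all peaks), and farther from the centre of 154 (called remote, 30.9% against 34.5%). The centre lay in a gene body in 50.3% of members and 57.3% of all peaks. Promoter members had higher untreated scores, with a median of 47.5, than distal (28.1) and remote (29.4) members.

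Along the chromosomes 388 members stood more than 100 kb from any other, and 111 formed 48 groups of 2 or more. The 3 groups of 4 lay at the IFIT genes and LIPA on chromosome 10, at B2M and TRIM69 on chromosome 15 and around TNFSF10 on chromosome 3. Groups of 3 lay at GBP4 and GBP5, at OAS1, OAS3 and OAS2, at SP110, SP140L and SP100, at CXCL9, CXCL10 and CXCL11, and at CFB and C4A, among others. C4A has a near-identical copy, so its reads could be split in counting. Peaks within 20 kb of a member that were not members themselves (432) had a median mean rise of 0.44, against -0.01 for the 31030 peaks elsewhere. Their rise was above 0 in all 4 clones in 50.2% of cases, against 18.2% elsewhere.

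Between genotypes, most member peaks scored lower in IRF1-guide clones. On clone means over both treatments the log2 difference, IRF1-guide minus control, had a median of -0.50 in members, with quartiles at -0.97 and -0.15, against -0.02 over all peaks. It was below 0 in 421 members (84.4%), against 52.2% of all peaks. Both IRF1-guide clones were below both control clones in 317 members (63.5%, against 25.2% of all peaks), and both were above in 36 (7.21%, against 19.9%). The median was -0.48 in untreated libraries and -0.51 in hIFNb libraries. It stayed between -0.45 and -0.54 under every other scaling and fit and without each clone in turn. In the 413 members over the untreated limit in each genotype the median was -0.44, 344 (83.3%) were below 0 and 249 (60.3%) had both IRF1-guide clones below both control clones. Among all 26507 peaks over that limit in each genotype the shares were 51.2% and 22.8%. Other peaks with such rises were lower too: the 423 peaks with the same rises from untreated means of 12 or less had a median of -0.76, with both IRF1-guide clones lower in 65.0%.

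**Figure D2:**
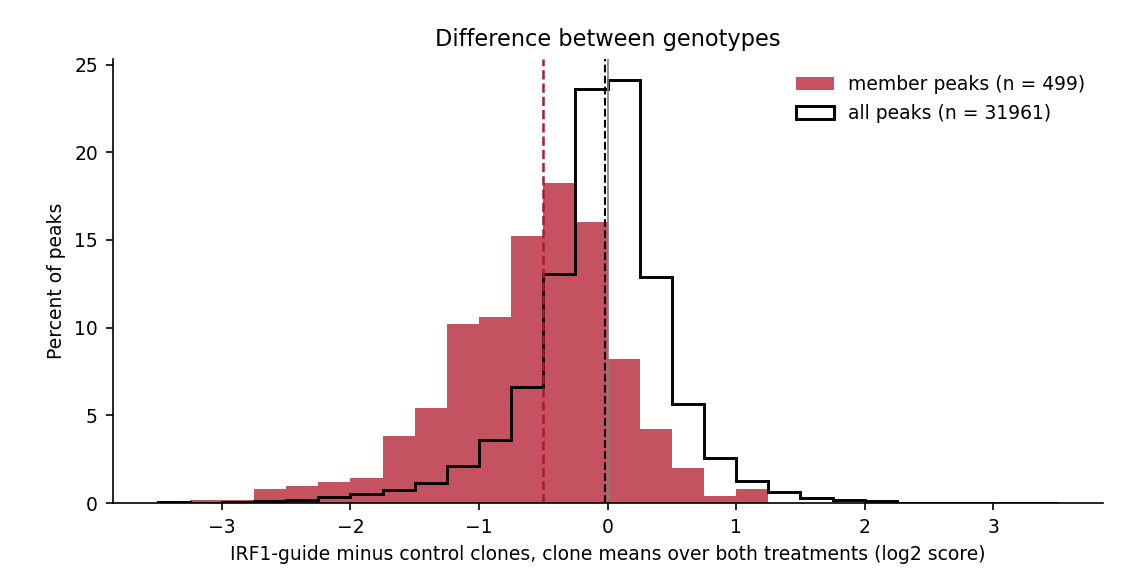
Log2 difference between IRF1-guide and control clones, from clone means over both treatments, as percent of peaks in bins of 0.25 for the 499 members (filled) and all 31961 peaks (outline). Dashed lines mark the medians, -0.50 for members and -0.02 for all peaks, and 421 members lie below 0.

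Each genotype had 2 clones, and few members passed the test one by one. With limma on clone means and Benjamini-Hochberg adjustment over all peaks, 28 members were lower in IRF1-guide clones at an adjusted p under 0.05 and 0 were higher, against 0.457% and 0.0594% of all peaks. At an unadjusted p under 0.05 the numbers were 212 lower and 6 higher, against 9.65% and 5.03% of all peaks. With hIFNb alone, 70 members were lower and 1 was higher, against 2.19% and 0.238% of all peaks. The fit for hIFNb alone took the 8 libraries as independent. Of these 70, 27 were also among the 28. Among the 413 members over the untreated limit in each genotype, 13 were lower over both treatments (3.15%, against 0.226% of all peaks over that limit) and 40 with hIFNb (9.69% against 1.39%). In untreated libraries 0 members and 0.0% of all peaks passed in limma. There the smallest adjusted p of a member was 0.0532, and 182 members were lower and 16 higher at an unadjusted p under 0.05, against 7.25% and 4.80% of all peaks. Leaving out any of the clones 11, 13, 1 and 4 took both counts of lower members to 0. On clone means, the count was also 0 without the mean-variance trend and 0 when peaks with a mean score under 20 were left out.

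The largest of the differences that passed lay at GBP4 and at distal and remote peaks. GBP4 encodes a guanylate-binding GTPase of the interferon-induced family. Its promoter peak (chr1:89197716-89203274, GRCh38) scored 21 and 28 with hIFNb and 11 and 14 untreated in IRF1-guide clones 11 and 13. In control clones 1 and 4 it scored 179 and 172 with hIFNb and 57 and 42 untreated. The scores of IRF1-guide clones after hIFNb were thus below those of untreated control clones. The untreated mean at GBP4 was 12.5 in IRF1-guide clones, just over the limit of 12, and 49.5 in control clones. The log2 difference was -2.35 (SE 0.27, limma adjusted p = 0.0366) over both treatments and -2.81 (SE 0.29, adjusted p = 0.00606) with hIFNb.

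A distal peak beside GBP5 (chr1:89281580-89293547) scored 37 and 44 with hIFNb and 13 and 17 untreated in IRF1-guide clones. In control clones the same peak scored 244 and 214 with hIFNb and 33 and 28 untreated. The groups did not overlap at either treatment. The log2 difference was -0.98 untreated, which did not pass, and -2.47 (SE 0.27, limma adjusted p = 0.00655) with hIFNb. The GBP5 promoter peak scored 110 and 103 with hIFNb in IRF1-guide clones against 240 and 252 in control clones, a log2 difference of -1.20 that did not pass (limma adjusted p = 0.0681). The groups at GBP1, another GTPase of the family, also did not overlap with hIFNb, with 176 and 225 in IRF1-guide clones and 445 and 404 in control clones (limma adjusted p = 0.0548).

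Away from start sites, a peak whose edge lay 17811 bp from LGALS16 (chr19:39673724-39683462) scored 39 and 28 with hIFNb and 15 and 10 untreated in IRF1-guide clones. Control clones had 312 and 206 with hIFNb and 55 and 43 untreated at this peak. Its log2 difference with hIFNb was -2.90 (SE 0.33, limma adjusted p = 0.00655), the most negative of the 70. The untreated mean near LGALS16 was 12.5 in IRF1-guide clones, just over the limit of 12, and 49 in control clones. Other peaks with large differences passed the untreated limit through the control clones alone, which fixed part of the difference, so they are given as values. A peak in CORO2B, a coronin actin-binding protein gene (chr15:68522422-68535411), scored 44 and 26 with hIFNb and 9 and 4 untreated in IRF1-guide clones, against 214 and 257 with hIFNb and 38 and 32 untreated in control clones. A weak peak near PTGDR (chr14:52220643-52222696), the gene of a prostaglandin D receptor, scored 10 and 4 with hIFNb in IRF1-guide clones and 49 and 55 in control clones, and 2 remote peaks, on chromosomes 5 and 9, had log2 differences over both treatments of -2.56 and -2.52. The 70 members lower with hIFNb comprised 13 promoter members (7.88%, against 0.643% of all promoter peaks), 30 distal (16.7% against 2.56%) and 27 remote members (17.5% against 3.22%). Of the 70, 29 were over the untreated limit through the control clones alone, which fixed part of their difference, and 40 were over it in each genotype. The 413 members were not split by class, so nothing is read from these shares about the classes. The single member that passed in the other direction lay in EEPD1 (chr7:36196319-36208938). It scored 177 and 164 with hIFNb and 46 and 74 untreated in IRF1-guide clones, against 66 and 66 with hIFNb and 24 and 32 untreated in control clones (log2 difference with hIFNb 1.36, SE 0.28, limma adjusted p = 0.0359).

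Members at known interferon and immune genes were described by lists of genes by role. The lists were chosen with earlier results of these data known, so the shares below are a description. Of 79 peaks linked within 50 kb to interferon-stimulated antiviral effectors, 29 were members, as were 13 of 35 peaks of ubiquitin, ISG15 conjugation, TRIM and PARP genes and 4 of 15 of guanylate-binding and APOL genes. The counts were 8 of 51 for antigen processing and MHC, 8 of 59 for interferon signalling and transcription factors, 4 of 38 for cell death and 5 of 51 for cytokines, receptors and inflammation. Members made up 1.56% of all peaks. The cell cycle list had 2 of 32, near MCM3 and BUB1, and the AHR and xenobiotic list 1 of 24, at CYP1A1. There were 0 members among the 57 low-grade epithelial, 34 high-grade and mesenchymal, 33 glycolysis, 60 cholesterol and fatty acid synthesis, 35 TCA cycle and respiratory chain, 42 AP-1 and immediate early and 19 housekeeping peaks. In all, 428 of the 499 members were in none of the 7 interferon and immune lists. Genotype medians given below for a list cover all its members, also any over the untreated limit through the control or IRF1-guide clones alone.

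**Figure D3:**
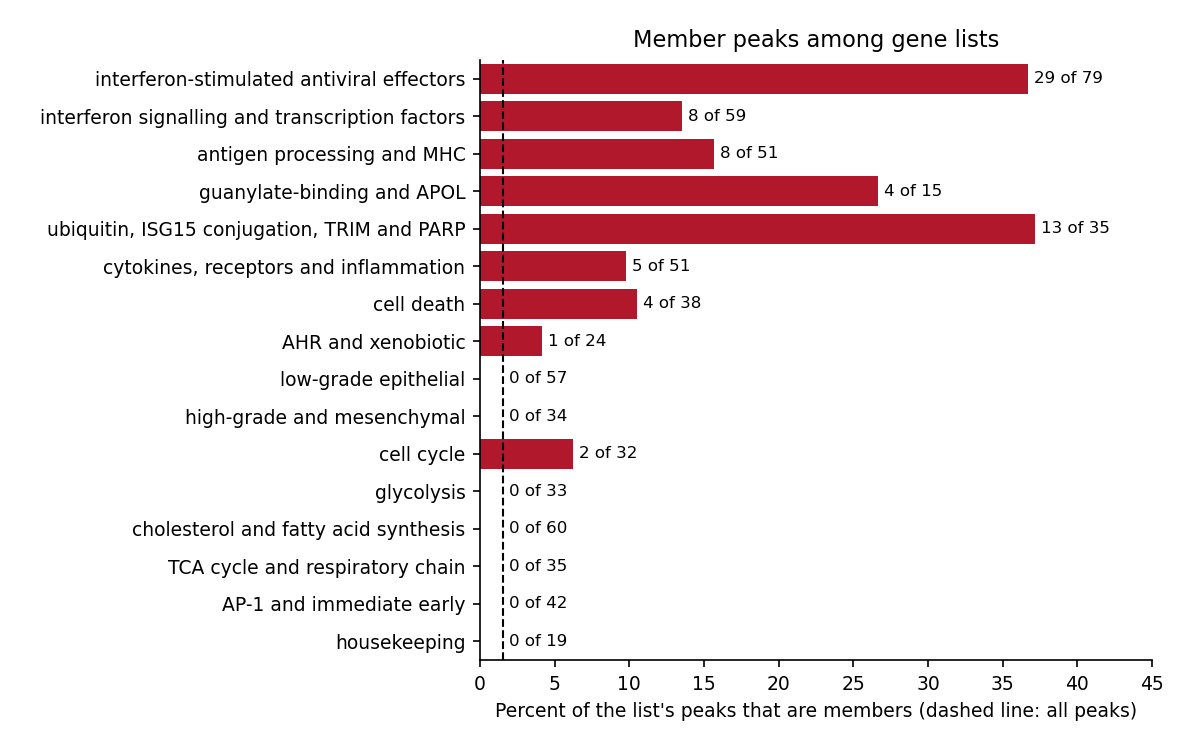
Percent of the peaks linked to each gene list that were members, with counts beside the bars and a dashed line at the 1.56% of all peaks. Antiviral effectors (29 of 79) and the ubiquitin, TRIM and PARP list (13 of 35) had the highest shares, and 7 of the lists had 0 members. The lists were chosen with earlier results of these data known.

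Antiviral effector genes included the member with the largest rise, and 1 of their 29 members passed a test between genotypes, a share near the 2.19% of all peaks called lower with hIFNb. The peak over CMPK2 and RSAD2 (chr2:6863716-6878834), RSAD2 encoding the antiviral enzyme viperin, scored 268 and 282 with hIFNb and 19 and 17 untreated in IRF1-guide clones. In control clones it scored 387 and 396 with hIFNb and 57 and 31 untreated. Its mean rise of 3.52 (SD 0.54 over 4 clones) was the highest of all members. At MX1, an antiviral GTPase (chr21:41414502-41429359), scores were 699 and 679 with hIFNb and 79 and 63 untreated in IRF1-guide clones, against 918 and 742 with hIFNb and 202 and 127 untreated in control clones. OAS3 and OAS2, which make the activator of RNase L, had mean rises of 2.29 and 2.69. The IFIT1 peak, a gene whose product binds viral RNA, scored 838 and 752 with hIFNb in IRF1-guide clones and 789 and 776 in control clones, so the groups overlapped there. IFIT5, of the same family, scored 271 and 199 with hIFNb and 66 and 50 untreated in IRF1-guide clones, against 263 and 239 with hIFNb and 98 and 80 untreated in control clones.

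Over the 29 effector members the median genotype difference was -0.55 untreated and -0.27 with hIFNb. It was below 0 in 27 untreated and in 22 with hIFNb, the 1 that passed with hIFNb was a distal peak near SAMD9L, and 0 passed over both treatments in limma. The peak over ISG15, the ubiquitin-like modifier, which also spans AGRN and HES4, overlapped between genotypes, with 1184 and 885 with hIFNb and 532 and 378 untreated in IRF1-guide clones, against 1083 and 986 with hIFNb and 512 and 467 untreated in control clones. At IFI6, a gene with 3 matches to the core, scores were 126 and 119 with hIFNb in IRF1-guide clones and 122 and 103 in control clones. RTP4, a receptor transporter protein with antiviral activity (chr3:187362879-187372441), scored 51 and 61 untreated in IRF1-guide clones against 198 and 147 in control clones. With hIFNb it scored 266 and 252 in IRF1-guide clones and 460 and 400 in control clones. Its untreated log2 difference of -1.60 had the smallest p of any member in that comparison, shared after adjustment with UBE2L6, HLA-C and a peak in SLC44A1, and missed the threshold (limma adjusted p = 0.0532).

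The signalling genes STAT2 and IRF9 were members, and neither passed a test between genotypes. STAT2 scored 223 and 161 with hIFNb and 62 and 54 untreated in IRF1-guide clones, against 188 and 215 with hIFNb and 57 and 52 untreated in control clones. The groups overlapped at both treatments, and STAT2 had a log2 difference over both treatments of 0.00 (SE 0.22). IRF9 scored 346 and 333 with hIFNb and 102 and 104 untreated in IRF1-guide clones, against 372 and 302 with hIFNb and 210 and 139 untreated in control clones. The genotypes thus overlapped at IRF9 with hIFNb and did not overlap untreated, without passing the test (limma adjusted p = 0.25 untreated). NLRC5, the transactivator of MHC class I genes, had a mean rise of 1.45, and SOCS1, a feedback inhibitor of JAK signalling, one of 2.31. The member of this list that was called lower was ETV7, a gene of the ETS factor family (chr6:36385775-36391478). It was over the untreated limit through the control clones alone, which fixed part of its difference, so it is given as values. ETV7 had 44 and 48 with hIFNb and 8 and 11 untreated in IRF1-guide clones. In control clones ETV7 had 213 and 183 with hIFNb and 41 and 33 untreated.

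Antigen presentation genes had 8 member peaks, and 0 of them passed in limma in any of the 3 genotype comparisons. In all 8 the clone means of both IRF1-guide clones were below both control clones, as in 63.5% of all members and 25.2% of all peaks, with a median difference of -1.03 untreated and -0.43 with hIFNb. The difference between treatments was not tested. The peak over TAP1, a subunit of the peptide transporter, and PSMB9 of the immunoproteasome (chr6:32851583-32856417) scored 217 and 193 with hIFNb and 42 and 61 untreated in IRF1-guide clones. In control clones it scored 407 and 295 with hIFNb and 134 and 123 untreated. The B2M peak, over the MHC class I light chain, had 273 and 264 with hIFNb and 97 and 112 untreated in IRF1-guide clones, against 275 and 287 with hIFNb and 154 and 163 untreated in control clones. The log2 difference at B2M was -0.07 with hIFNb and -0.60 untreated. HLA-B, a heavy chain gene, scored 39 and 28 untreated in IRF1-guide clones and 113 and 99 in control clones, and HLA-C scored 33 and 31 against 95 and 99. The HLA genes resemble one another closely, so reads may be split between them.

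The ubiquitin and ISG15 conjugation genes also had a median difference farther below 0 untreated (-0.85) than with hIFNb (-0.31). UBA7, a member of this list, was over the untreated limit through the control clones alone. UBE2L6, the conjugating enzyme for ISG15 (chr11:57562514-57571724), scored 208 and 234 with hIFNb and 41 and 44 untreated in IRF1-guide clones, against 381 and 326 with hIFNb and 132 and 113 untreated in control clones. HERC6, a HECT-type ligase, scored 361 and 330 with hIFNb and 30 and 27 untreated in IRF1-guide clones. In control clones HERC6 scored 471 and 338 with hIFNb and 89 and 61 untreated, so its rises, 3.55 and 3.56 in IRF1-guide clones, exceeded the 2.39 and 2.45 in control clones. All 13 members of the list had differences below 0 over both treatments, as 84.4% of all members did, and 1 passed with hIFNb, at TRAFD1, a regulator of TRAF signalling (log2 difference -1.21, limma adjusted p = 0.044).

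At CXCL10 and ZBP1 the genotypes lay farther apart with hIFNb than untreated. The peak over CXCL10 and CXCL11, chemokines that attract T cells (chr4:76020332-76037768), scored 161 and 91 with hIFNb and 25 and 17 untreated in IRF1-guide clones, against 389 and 361 with hIFNb and 30 and 50 untreated in control clones. Its log2 difference was -1.62 (SE 0.34, limma adjusted p = 0.0371) with hIFNb and -0.88 untreated. ZBP1, a nucleic acid sensor in cell death pathways (chr20:57615346-57624731), scored 179 and 96 with hIFNb and 65 and 44 untreated in IRF1-guide clones. The ZBP1 peak scored 418 and 404 with hIFNb and 106 and 107 untreated in control clones, and the log2 difference was -1.64 with hIFNb (SE 0.30, limma adjusted p = 0.0209). TNFSF10, which encodes the death ligand TRAIL, scored 206 and 242 with hIFNb and 72 and 125 untreated in IRF1-guide clones. Its control values were 284 and 247 with hIFNb and 99 and 77 untreated, so the genotypes overlapped untreated and differed by -0.25 on the log2 scale with hIFNb (limma adjusted p = 0.712). IDO1, a tryptophan-degrading enzyme gene, scored 36 and 23 with hIFNb and 16 and 0 untreated in IRF1-guide clones, against 176 and 206 with hIFNb and 36 and 61 untreated in control clones. The 0 in clone 13 gave IDO1 a rise of 4.58 there, among the 4 widest spreads of the rise over clones, and its difference did not pass (limma adjusted p = 0.0726 over both treatments). IDO1 too was over the untreated limit through the control clones alone.

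**Figure D4:**
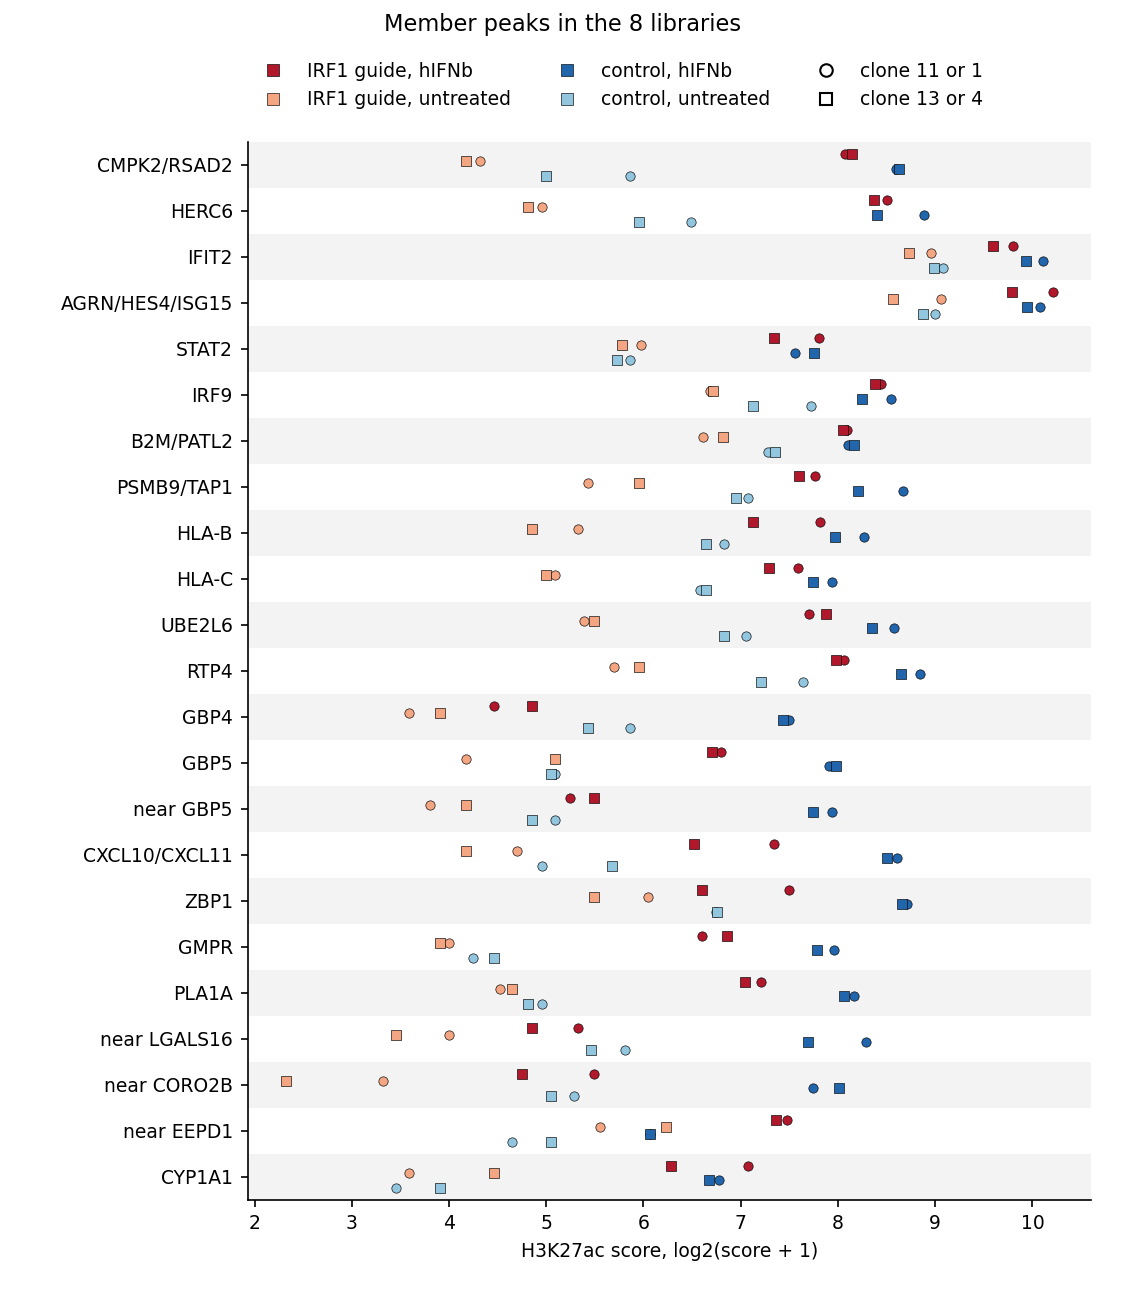
H3K27ac score, as log2(score + 1), of 23 member peaks in each of the 8 libraries, IRF1-guide clones in red shades and control clones in blue, hIFNb dark and untreated light. Antigen presentation peaks such as HLA-B and HLA-C separate the genotypes most when untreated, GBP4 and the peak near LGALS16 separate them at both treatments, and the peak near EEPD1 lies higher in IRF1-guide clones.

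Members without an immune role in the lists included strong responders. GMPR, a guanosine monophosphate reductase gene (chr6:16229094-16239681), scored 96 and 115 with hIFNb and 15 and 14 untreated in IRF1-guide clones. In control clones GMPR scored 248 and 219 with hIFNb and 18 and 21 untreated, a log2 difference of -1.14 with hIFNb (SE 0.25, limma adjusted p = 0.0443). PLA1A, a phospholipase gene, scored 147 and 131 with hIFNb in IRF1-guide clones against 286 and 266 in control clones, with untreated values of 22 and 24 against 30 and 27 (log2 difference with hIFNb -0.99, limma adjusted p = 0.0509, short of the threshold). CYP1A1, a xenobiotic-metabolising enzyme controlled by the aryl hydrocarbon receptor, scored 134 and 77 with hIFNb and 11 and 21 untreated in IRF1-guide clones, against 109 and 101 with hIFNb and 10 and 14 untreated in control clones. Its groups overlapped at both treatments, and CYP1A1 was over the untreated limit through the IRF1-guide clones alone. A peak in CYSTM1, its edge 27677 bp from the nearest start, had the largest smallest-clone rise of the members, 2.85, with 75 and 107 with hIFNb and 8 and 14 untreated in IRF1-guide clones against 154 and 134 with hIFNb and 18 and 14 untreated in control clones. The CYSTM1 peak was over the untreated limit through the control clones alone.

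The rise itself was compared between genotypes by position. The rule fixed a floor of 0.8 for every rise, so these values are a description. Members over the untreated limit through the control or IRF1-guide clones alone were kept in, so nothing is read from the shares about the classes. The rise in IRF1-guide clones minus that in control clones had a median of 0.07 in promoter members, -0.15 in distal and -0.19 in remote members, and -0.11 over all members. Both IRF1-guide clones had smaller rises than both control clones in 169 members (33.9%, against 21.6% of all peaks) and larger rises in 101 (20.2%, against 20.6%). Among promoter members 38 (23.0%, against 16.6% of all promoter peaks) had smaller and 55 (33.3% against 22.8%) larger rises in both IRF1-guide clones. Among remote members the numbers were 64 (41.6%, against 24.1% of all remote peaks) and 13 (8.44% against 19.5%). In the 71 members of the 7 immune lists the median genotype difference was -0.62 untreated and -0.30 with hIFNb, and in the 428 others it was -0.45 untreated and -0.55 with hIFNb. Within the lists the 4 guanylate-binding members had -0.71 untreated and -1.84 with hIFNb, and the 5 cytokine members -0.90 and -1.62.

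**Figure D5:**
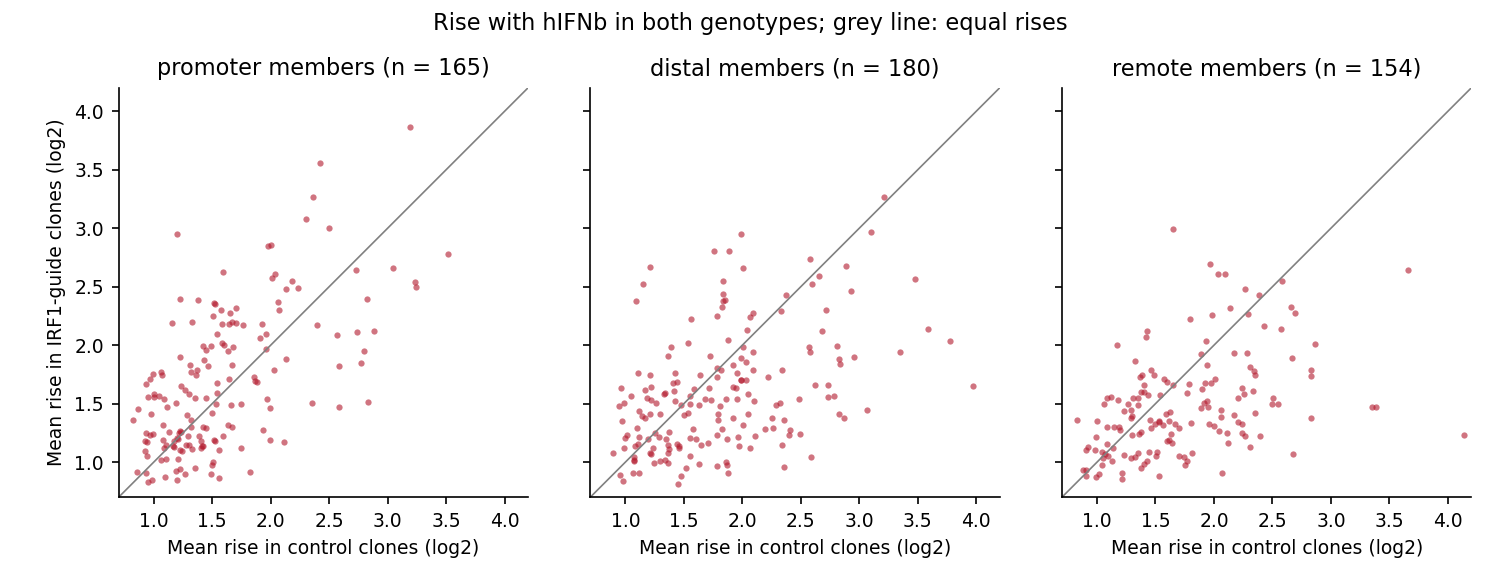
Mean rise with hIFNb in IRF1-guide clones (vertical, log2) against that in control clones (horizontal, log2) for promoter (n = 165), distal (n = 180) and remote (n = 154) members, with a grey line at equal rises. Each point is 1 member. Both IRF1-guide clones exceeded both control clones in 55 promoter members (33.3%, against 22.8% of all promoter peaks) and 13 remote members (8.44% against 19.5%), and were below both in 38 and 64. The rule used these rises, so nothing is read from the shares about the classes.

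The 48 promoter peaks with a match had a median rise of 1.69, a median genotype difference of -0.57 and a median untreated score of 44, against 1.31, -0.34 and 54 for the 77 without one. These medians share the 8 libraries and carry no test.

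Beside IDO1, the widest spreads of the rise over clones lay at 2 remote peaks on chromosome X and at a peak near CLMP, an adhesion molecule gene, which scored 40 and 70 with hIFNb and 13 and 20 untreated in IRF1-guide clones, against 185 and 173 with hIFNb and 11 and 10 untreated in control clones. CLMP's log2 difference was -1.74 with hIFNb (limma adjusted p = 0.0287) and 0.58 untreated. The peak near CLMP was over the untreated limit through the IRF1-guide clones alone, which fixed part of its untreated difference. The narrowest spreads included a remote peak on chromosome 5 (chr5:130534038-130560902) with 896 and 1107 with hIFNb and 290 and 341 untreated in IRF1-guide clones. In control clones that peak had 1042 and 1023 with hIFNb and 327 and 330 untreated, so its rise lay between 1.62 and 1.70 in all 4 clones and its genotype difference was -0.06. The housekeeping genes GAPDH and ACTB were no members, with mean rises at their promoters of 0.07 and 0.15.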

How the data were processed

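H3K27ac chromatin immunoprecipitation was measured in 8 libraries, hIFNb and untreated for each of 4 CFPAC1 clones. The authors deposited 1 table with a whole-number score per peak and library, treated here as a score, since no source used here says how it was scaled. The submitters' processing notes name Bowtie2 and GRCh38. All sample columns matched a sample. Members and gene lists were chosen with earlier results of these data known.

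Scores were analysed as log2(score + 1), with no filter, so all 31961 peaks were tested and every member is accounted for. Genotype was tested with limma 3.58.1 (R 4.3.3) with a mean-variance trend: on the 4 clone means, and at each treatment, in a model of the 4 group means over the 8 libraries. P-values were Benjamini-Hochberg adjusted over all peaks, and the threshold was 0.05. The script was tested on simulated data. Libraries of a clone share the clone by label. Their deviations from the group means correlated by 0.392 in IRF1-guide and 0.437 in control clones. The test on clone means counted each clone once. The tests at 1 treatment took the 8 libraries as independent despite this correlation, so their adjusted p-values may be too small.

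Peaks were linked to the nearest protein-coding start within 50 kb, from RefSeq promoters (GRCh38.p14) and the authors' own distances. 27246 of 29099 gene names in the table matched RefSeq. Named peaks are those with the largest smallest-clone rise, the largest called genotype differences or, with none called, the smallest p, the strongest untreated members of each gene list, those at the thresholds, with the widest or narrowest spread of the rise, the widest, and IRF1, IRF9, ISG15, GAPDH and ACTB. MX1, OAS2, OAS3, IFIT1, IFIT5, IFI6, ETV7, SOCS1, SAMD9L and the printed promoters were chosen after their values were seen. Alternatives were other member thresholds, a pseudocount of 4, median scaling, quantile normalisation, no trend, a mean score of at least 20, leaving out each clone, and fits with or without the replicate block. After the data were seen, members over the untreated limit in each genotype were added as an alternative. Scores carry no read depth, so precision rests on the 2 clones per genotype.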

Additional observations from a re-analysis of the deposited data

How the results depend on the processing

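The number of members was 823 with a minimum rise of 0.6 and 321 with an untreated mean over 24. With 1 clone left out of both the untreated mean and the rise, it was 526 to 772, and 470 to 497 of the 499 stayed members. It was within 1.5 times of 499 under the other thresholds and scalings. Members lower in IRF1-guide clones over both treatments numbered 45 with a pseudocount of 4, 0 without the mean-variance trend, 0 with a mean score of at least 20, and 155, beside 3 higher, with no replicate block. The fit with no replicate block took the libraries of a clone as independent. Shares of all peaks are not given for these settings, here or with hIFNb, so the counts are not set against other peaks. Without each clone in turn the number was 0 to 0. With hIFNb it was 45 lower and 0 higher without the trend, and 0 to 0 for both directions without each clone, where the lone clone is assumed to vary like the other groups. For the hIFNb response 165 to 327 members passed without each clone, and 499 with the replicate block. The rule that chose the members used the hIFNb response. Nothing is read from these counts of members that passed, for which shares of all peaks are not given. The median genotype difference was -0.45 with quantile normalisation and -0.48 to -0.54 without each clone. Under the scalings tried, 409 to 421 members stayed below 0. With members held to an untreated mean over 12 in each genotype, chosen after seeing the data, 13 were lower over both treatments, 40 with hIFNb, and the median was -0.44. The share of promoters with the IRF core was 23.8% among all genes linked to a member. Of the values of single peaks, 48 tests over both treatments and 65 with hIFNb lost their call under an alternative, 4 gained one in each, and none changed sign while called. The causes were not tested. Each genotype has 2 clones, so clonal variation and the guide cannot be told apart, for a single peak or for the members as a set.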

Other observations

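Peaks chosen after their values were seen add the following. Members lay in SRGAP2 and in its copies SRGAP2B and SRGAP2C on chromosome 1, and 1 peak in each was lower with hIFNb in IRF1-guide clones (limma adjusted p = 0.0232, 0.0204 and 0.0145). The SRGAP2C peak scored 341 and 275 with hIFNb and 116 and 108 untreated in IRF1-guide clones, against 631 and 684 with hIFNb and 152 and 162 untreated in control clones. A further, smaller member in SRGAP2C scored 55 and 44 with hIFNb and 30 and 23 untreated in IRF1-guide clones, against 79 and 105 with hIFNb and 25 and 38 untreated in control clones, and did not pass (limma adjusted p = 0.193). The copies share near-identical sequence, so these peaks may hold the reads of fewer sites. The same holds for AQP12A and the peak near AQP12B. A remote peak in FBXL17, the gene of an F-box protein, had the smallest adjusted p of the members with hIFNb (0.00508 in limma), with 89 and 91 with hIFNb and 38 and 47 untreated in IRF1-guide clones, against 407 and 429 with hIFNb and 65 and 64 untreated in control clones. The GSDMB promoter, of a gasdermin family gene, scored 84 and 56 with hIFNb and 17 and 14 untreated in IRF1-guide clones, against 318 and 210 with hIFNb and 51 and 36 untreated in control clones (limma adjusted p = 0.0152 with hIFNb). A peak beside the epithelial oxidase gene DUOX2 was among the strongest members, with 1621 and 1268 with hIFNb and 559 and 681 untreated in IRF1-guide clones, against 1875 and 2101 with hIFNb and 760 and 1103 untreated in control clones. A remote member on the same chromosome (chr15:44819760-44853289) had similar scores. They were 1672 and 1403 with hIFNb and 589 and 679 untreated in IRF1-guide clones. Control clones had 2007 and 2315 with hIFNb and 779 and 1139 untreated there. Whether these 2 peaks share reads was not tested.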
